A study of Mus musculus with 16 samples.

Results

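Solute carriers are membrane proteins that move small solutes across the plasma membrane or the membrane of an organelle, and their genes carry the symbol Slc followed by a family number, a letter and a member number. The 180 genes analysed here are all genes on the array whose symbol has that form. A further 3 genes of that form were not analysed here. The 180 genes were measured by 238 probes, and 134 of them had 1 probe and 46 had several. All named genes on the array numbered 9026. By family number, 39 of the Slc genes were placed with carriers of amino acids, creatine or related transmitters, and 41 with carriers of inorganic ions. Another 22 are mitochondrial carriers of family Slc25. A group of 25 is called organic ion carriers here, for lactate, urate, monoamines and the like. A further 18 were placed with sugar carriers, and 35 belong to other families. All groups follow family numbers alone, not the solute of each gene. The organic ion group thus includes the sulfate carriers of Slc13, and the amino acid group the heavy chain Slc3a2.

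In brain, amino acid and monoamine carriers clear transmitters from the synapse or load them into vesicles, and cation-chloride cotransporters set the chloride level of neurons. In liver, carriers on the blood side of hepatocytes take up amino acids, organic anions and monocarboxylates, while the mitochondrial carriers pass metabolites such as ADP, citrate, aspartate and glutathione through the inner mitochondrial membrane. Carriers of kidney and intestine, such as Slc12a1 and Slc5a1, are also represented on the array.

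The samples came from 4 male mice of strain C57BL/6J, 18 weeks old, with genotype HdhQ111/+ (heterozygote). HdhQ111 is a knock-in allele of mouse huntingtin, the gene mutated in Huntington's disease, in which the CAG repeat is lengthened, and it is carried by every cell of the animal. Brain and liver of the same 4 mice were each compared on 2-colour cDNA arrays with an RNA pool of 4 wildtype C57BL/6J males of that age and tissue. For every RNA the dyes were exchanged between 2 arrays, which made 8 arrays per tissue and 16 in all. The comparison asked how transcript ratios differed between mutant and wildtype animals in each tissue. Values are log2 ratios, likely HdhQ111/+ over wildtype pool, averaged over the dye pair, with the SD over mice. The sign, the log base and the match of gene names to rows rest on assumptions given with the processing. The pool is 1 control sample, so no test here includes the spread among wildtype mice.

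The ratios carry no expression level, so the labelled tissue could not be checked against its markers by level, and fewer cells of a type and less RNA per cell cannot be told apart. Arrays held 19530 to 20584 values with medians from -0.13 to 0.25. In brain the median of all named genes differed between mice, at -0.10, 0.0080, 0.15 and 0.039, and the Slc genes followed it at -0.11, -0.012, 0.14 and 0.048. In liver the medians of all genes were -0.073, -0.042, -0.023 and -0.0042. Of 5 measured pituitary markers of 8 listed, all 5 had a mean below 0 in brain, with a median of -2.75 and a range from -4.35 to -0.22. Choroid plexus markers, 4 measured of 10, had brain means from -0.15 to -0.095, and none passed the test. Hepatocyte markers, 7 measured of 10, had liver means from -0.30 to 0.048 with a median of -0.19. The part of these cell types in the Slc ratios was not tested.

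No Slc gene passed the test in either tissue. In brain, 0 of 173 tested Slc genes had an adjusted p under 0.05 (limma, Benjamini-Hochberg over all 8567 genes tested), against 3 genes in all (0.035%), which were Prl, Pomc and Crybb2. In liver, 0 of 177 Slc genes passed, and 0 of all 8803 genes (0.0%). The smallest adjusted p of an Slc gene was 0.975 in brain and 0.576 in liver. Before adjustment, 13 Slc genes had p under 0.05 in brain, or 7.51% against 3.92% of all genes, of which 6 were above 0 and 7 below. In liver 13 had p under 0.05, or 7.34% against 8.24% of all genes, with 4 above 0 and 9 below. That liver count was 2 without mouse 2 and 5 without mouse 1. The genes below are therefore described by their values, and none is called changed.

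Counts of genes with all 4 mice on the same side of 0 gave a like picture. In brain, 10 of 159 Slc genes with 4 values lay above 0 in all 4 mice (6.29%, against 6.1% of all genes), and 11 lay below (6.92%, against 3.98%). In liver, 11 of 169 lay above 0 in all 4 mice (6.51%, against 6.52%), and 24 lay below (14.2%, against 14.2%). Of the Slc means, 19 of 173 exceeded 0.5 in size in brain (11%, against 4.59%) and 9 of 177 in liver (5.08%, against 3.02%). The median SD over mice was 0.31 in brain for the Slc genes and 0.28 for all genes.

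The families differed little in their medians. In brain, the median of the gene means was -0.025 for amino acid carriers, 0.035 for ion carriers, 0.030 for mitochondrial carriers and 0.051 for organic ion carriers, beside 0.023 for all genes. In liver, the medians were -0.026, -0.018, -0.055 and 0.0074 in the same order, beside -0.030 for all genes. Each of these family medians was smaller in size than the SD of the 4 per-mouse medians behind it. Mouse by mouse, the amino acid median in brain was -0.018, -0.024, 0.13 and 0.039, and the ion median was -0.13, -0.014, 0.069 and 0.092. The mitochondrial median in brain was -0.12, 0.018, 0.19 and 0.058. Mouse 1 had the lowest brain median of the ion and mitochondrial families and mouse 3 the highest of the amino acid and mitochondrial families, as in all genes.

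By direction, 18 amino acid carriers had brain means above 0 and 21 below, and the ion carriers divided 26 to 14. The mitochondrial carriers divided 13 to 7 in brain (65.0% above 0), but 10 to 10 (50.0%) once each array was centred on its median. The organic ion carriers divided 15 to 8. In liver, 15 amino acid carriers lay above 0 and 23 below, the ion carriers divided 17 to 24, the mitochondrial carriers 9 to 12 and the organic ion carriers 12 to 12. The families differed more in the size of their means. In brain, 7 of 23 organic ion carriers (30.4%) exceeded 0.5 in size, against 1 of 40 ion carriers (2.5%) and 4.59% of all genes. In liver, 3 of 24 organic ion carriers (12.5%) and 0 of 41 ion carriers did, beside 3.02% of all genes. Sugar carriers also held large shares, with 4 of 17 (23.5%) in brain and 3 of 18 (16.7%) in liver. The organic ion carriers also spread more over mice in brain. Their median SD was 0.44 there, against 0.26 for ion carriers and 0.28 for all genes.

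**Figure D1:**
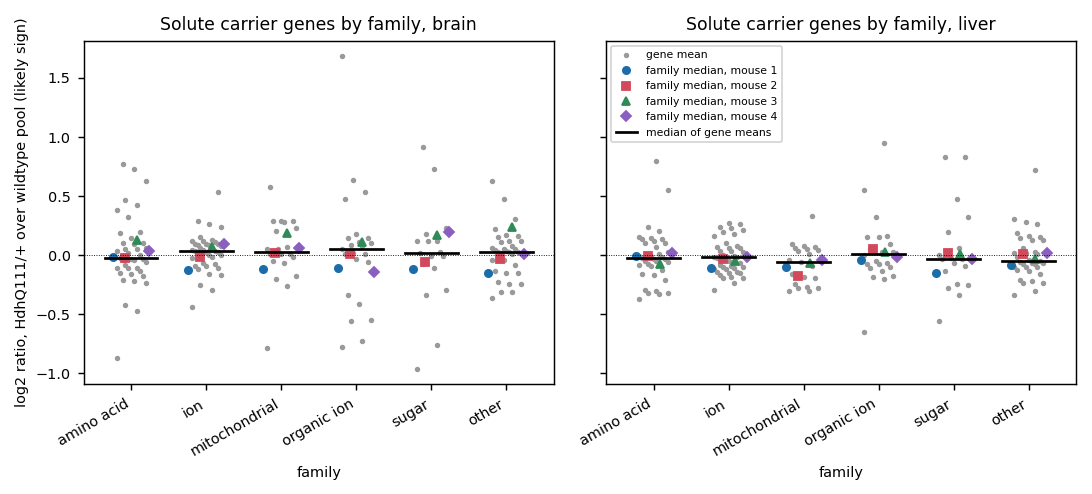
Mean log2 ratio of each tested Slc gene (grey points, vertical axis) by family (horizontal axis) in brain and liver, with the median of the gene means (black line) and the family median in each of the 4 mice (coloured markers). The family medians lie close to 0 in both tissues, while the organic ion and sugar carriers hold most of the means over 0.5 in size in brain.

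Among amino acid carriers, Slc38a4, a sodium-coupled carrier of neutral amino acids that is abundant in liver, was the gene with the smallest unadjusted p for the difference between tissues. In brain its log2 ratio was 0.33, 0.16, 1.34 and 1.25 in mice 1 to 4, with a mean of 0.77 ± 0.61 (SD). In liver it was -0.41, -0.59, -0.21 and -0.097, with a mean of -0.33 ± 0.22 (SD). All 4 brain values were above 0 and all 4 liver values below, so the tissues did not overlap. The liver-minus-brain difference was -1.10 ± 0.28 (SE), with an adjusted p of 0.677 (limma). In liver its mean was -0.028 on the Cy5 arrays and -0.62 on the Cy3 arrays, both below 0 but unlike in size. Mice 3 and 4 held the high brain values.

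Slc6a13, a carrier of GABA and taurine found in liver and in the meninges, had the same pattern. Its ratio in brain was 0.033, 0.63, 0.40 and 0.63 in mice 1 to 4, a mean of 0.42 ± 0.28 (SD). In liver it was -0.49, -0.57, -0.16 and -0.0095, a mean of -0.31 ± 0.26 (SD). Every brain value lay above every liver value, although mouse 1 in brain and mouse 4 in liver were near 0. The difference was -0.73 ± 0.19 (SE), with an adjusted p of 0.677 (limma). In brain both dye orientations gave nearly the same mean, 0.43 on the Cy5 arrays and 0.42 on the Cy3 arrays. In liver they did not, with -0.068 on the Cy5 arrays and -0.54 on the Cy3 arrays.

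Other amino acid carriers lay below 0 in all 4 livers. Including Slc38a4 and Slc6a13, 5 of the 36 with 4 liver values did so, beside 14.2% of all genes. Slc3a2, the heavy chain that brings Slc7a5 and its relatives to the cell surface, was at -0.41, -0.31, -0.53 and -0.021, a mean of -0.32 ± 0.22 (SD). Slc43a2, a carrier of large neutral amino acids, was at -0.53, -0.26, -0.056 and -0.44, a mean of -0.32 ± 0.21 (SD). For both genes the dyes disagreed in sign. Slc3a2 was at -0.80 on the Cy5 arrays and 0.16 on the Cy3 arrays. Slc43a2 was at -0.66 on the Cy5 arrays and 0.016 on the Cy3 arrays. The 2 probes of Slc43a2 had means of -0.49 and -0.15 in liver. Slc38a3, which carries glutamine in hepatocytes and astrocytes, was at -0.33, -0.52, 0.033 and -0.38 in liver, with mouse 3 above 0. Slc36a1, a proton-coupled carrier of small amino acids, was also below 0 in all 4 livers, at -0.17 ± 0.13 (SD). Its dyes disagreed in sign as well, with 0.28 on the Cy5 arrays and -0.61 on the Cy3 arrays. So did those of Slc38a3, with 0.012 and -0.61. The adjusted p of Slc3a2, Slc43a2 and Slc38a3 was 0.576 in each case (limma).

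In the other direction, Slc6a8, the creatine carrier, was the only amino acid family gene above 0 in all 4 livers among the 36 with 4 values. Of all genes, 6.52% lay above 0 in all 4 livers. It was at 1.44, 0.21, 0.11 and 0.45, a mean of 0.55 ± 0.61 (SD), with mouse 1 far above the others. Its adjusted p was 0.576 (limma). Slc7a5, which carries large neutral amino acids together with Slc3a2, was at 0.36, 0.073, -0.96 and 0.0050 in brain and -0.18, -0.023, -0.26 and 0.12 in liver. Its mice lay on both sides of 0 in both tissues. Of its relatives, Slc7a8 was at 0.73 ± 0.40 (SD, n = 3 mice) in brain and Slc7a1, the cationic amino acid carrier, at -0.87 ± 0.80 (SD, n = 3 mice). Both had 1 mouse missing, and they are named because of their means over 0.5 in size. Their dyes disagreed in sign in brain. Slc7a8 was at 2.01 on the Cy5 arrays and -0.53 on the Cy3 arrays, and Slc7a1 at -1.54 and 0.42.

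The 5' windows of the 3 amino acid carriers with the smallest unadjusted p in liver are shown here, because all 3 lay below 0 in every liver. Each window runs from 250 bases before to 50 bases after an annotated start, in the RefSeq annotation of GRCm38.p6. The Slc38a4 window lies at chr15:97055907-97056206 on the minus strand, the Slc43a2 window at chr11:75531444-75531743 on the plus strand, and the Slc3a2 window at chr19:8713848-8714147 on the minus strand. Capitals mark matches to the GC box letters GGGCGG on either strand.
Slc38a4: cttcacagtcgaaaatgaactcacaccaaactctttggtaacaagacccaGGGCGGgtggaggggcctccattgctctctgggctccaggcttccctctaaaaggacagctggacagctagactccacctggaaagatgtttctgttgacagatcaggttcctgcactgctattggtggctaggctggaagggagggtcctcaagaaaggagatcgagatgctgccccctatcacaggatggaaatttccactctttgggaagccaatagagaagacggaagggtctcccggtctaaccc
Slc43a2: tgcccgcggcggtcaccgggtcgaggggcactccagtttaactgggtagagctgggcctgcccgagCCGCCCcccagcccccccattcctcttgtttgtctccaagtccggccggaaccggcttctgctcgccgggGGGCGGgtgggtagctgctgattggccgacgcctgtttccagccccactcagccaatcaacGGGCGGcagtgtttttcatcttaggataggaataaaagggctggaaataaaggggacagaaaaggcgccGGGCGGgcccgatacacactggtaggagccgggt
Slc3a2: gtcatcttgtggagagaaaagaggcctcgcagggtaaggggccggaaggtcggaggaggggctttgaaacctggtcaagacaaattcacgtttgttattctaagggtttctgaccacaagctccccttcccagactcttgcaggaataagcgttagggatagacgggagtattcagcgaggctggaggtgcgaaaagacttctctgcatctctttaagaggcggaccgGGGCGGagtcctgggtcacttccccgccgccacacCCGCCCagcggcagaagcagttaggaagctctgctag
The GC box letters occurred 1 time in the Slc38a4 window, 4 times in the Slc43a2 window and 2 times in the Slc3a2 window, and 35.7% of all 32851 windows of this length held them. The letters TGATGNAAN, a form of the amino acid response element, were in none of the 3 windows and in 3.95% of all windows on either strand. The letters TATAAA were also in none of these 3, and in 13.6% of all windows. Slc38a4 has 3 annotated windows and Slc43a2 has 2, of which the first is shown, and the second Slc38a4 window holds TATAAA 1 time. Windows were found for 141 of the 180 Slc genes, too few for a share over the Slc genes. The genes and motifs were chosen after the values were seen.

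Slc32a1, which loads GABA and glycine into vesicles, was at 0.031, -0.097, 0.16 and 0.11 in brain, a mean of 0.049 ± 0.11 (SD). Slc1a3, the glial glutamate carrier, was at -0.42, -0.18, 0.26 and 0.12, and Slc1a1, the neuronal glutamate carrier, at -0.068, 0.59, 0.13 and 0.098. Each of these 3 had mice on both sides of 0. Slc6a9, a glycine carrier, averaged -0.029 ± 0.45 (SD). Slc6a4, the serotonin carrier, averaged 0.32 ± 0.40 over 3 mice. Slc17a7, which loads glutamate into vesicles, was at 1.97 in mouse 1 and 0.58 in mouse 2 in brain. It had no other complete dye pair in either tissue and was not tested. On the Cy3 arrays alone, which include single arrays of other mice, its brain mean was 0.30.

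**Figure D2:**
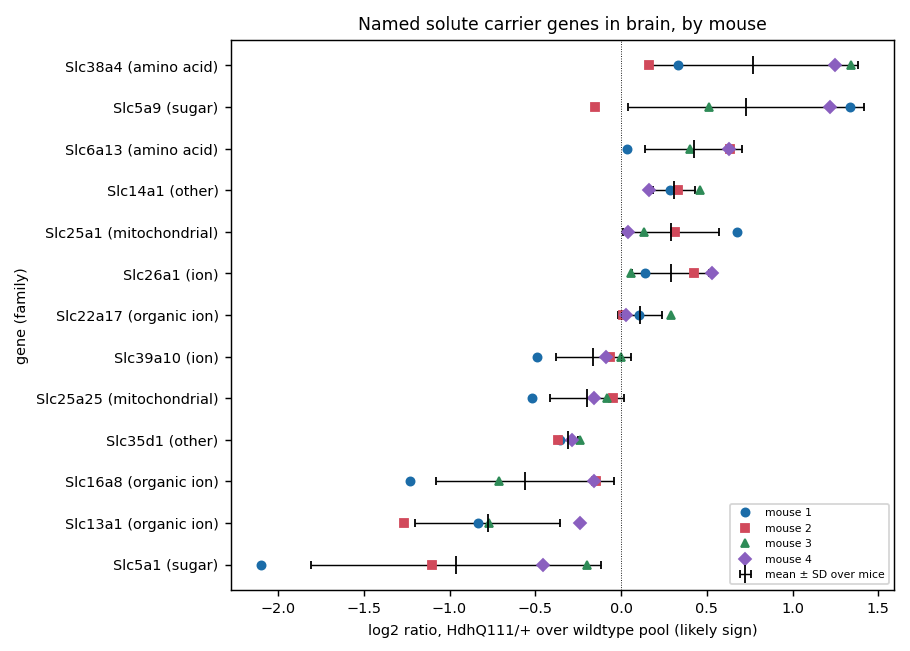
Log2 ratio in brain (horizontal axis) of the 8 Slc genes with the smallest unadjusted p among those with values in 4 mice, and of those with the highest and lowest means of a family with all 4 mice on the same side of 0 (vertical axis). Coloured markers are mice, and the black mark and bar are the mean ± SD. Slc35d1 and Slc14a1 have narrow spreads, whereas mouse 1 of Slc5a1 lies at -2.10.

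Among organic ion carriers, Slc18a2 had the highest liver mean of all tested Slc genes. It loads dopamine, noradrenaline, serotonin and histamine into vesicles, and it is known from monoamine neurons and mast cells. In liver it was at 1.11, 1.54, 1.02 and 0.12 in mice 1 to 4, a mean of 0.95 ± 0.60 (SD), with an adjusted p of 0.576 (limma). In brain it was at -0.12, 0.29, -1.36 and -0.46, a mean of -0.41 ± 0.70 (SD). The difference between the tissues was 1.36 ± 0.38 (SE), with an adjusted p of 0.677 (limma). In liver the dyes disagreed, with -0.080 on the Cy5 arrays and 1.97 on the Cy3 arrays. The tissues overlapped, since mouse 4 in liver lay below mouse 2 in brain.

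Slc13a4, a sodium-coupled sulfate carrier, and Slc22a18 also lay above 0 in all 4 livers. Slc13a4 was at 1.06, 0.998, 0.071 and 0.096, high in mice 1 and 2 and near 0 in mice 3 and 4. Slc22a18, an imprinted member of the organic cation family, was at 0.20, 0.71, 0.12 and 0.25. Their means of 0.56 ± 0.55 and 0.32 ± 0.27 (SD) were made of values of opposite sign in the 2 dyes: Slc13a4 was at -0.57 on the Cy5 arrays and 1.68 on the Cy3 arrays, and Slc22a18 at -0.70 on the Cy5 arrays and 1.34 on the Cy3 arrays. Slc16a11, a monocarboxylate carrier of liver, was above 0 in all 4 livers at only 0.048 ± 0.032 (SD). Slc17a1, a carrier of urate and phosphate in kidney and liver, was the organic ion carrier below 0 in all 4 livers, at -0.22, -0.30, -0.12 and -0.18, and it kept its sign in both dyes with -0.18 on the Cy5 arrays and -0.23 on the Cy3 arrays.

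In brain, Slc13a1, a sulfate carrier of kidney and intestine, had the smallest unadjusted p among the Slc genes with 4 values. It was at -0.83, -1.27, -0.77 and -0.24, a mean of -0.78 ± 0.42 (SD), with an adjusted p of 0.975 (limma). All 4 brains lay below 0 and both dyes gave negative means, -1.06 on the Cy5 arrays and -0.49 on the Cy3 arrays. In liver the same gene scattered from mouse to mouse, at -0.21, 1.72, 0.25 and -1.15. Slc16a8, a lactate carrier known from retinal pigment epithelium and choroid plexus, was at -1.23, -0.15, -0.71 and -0.16 in brain and 0.14, 0.0020, -0.24 and 0.097 in liver. Its brain values were all below 0, and its liver values lay on both sides of it.

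Slc22a7, an organic anion carrier of liver and kidney, had the highest brain mean of all 8567 genes tested. It was at 1.09 in mouse 1, 0.91 in mouse 2 and 3.05 in mouse 4, with no value in mouse 3, a mean of 1.68 ± 1.19 over 3 mice. In liver it was at 0.055, 0.080, -0.068 and 0.034, a mean of 0.025 ± 0.065 (SD). The spread over mice was thus far wider in brain than in liver. The adjusted p in brain was 0.999 (limma). Slc16a1, the widespread lactate and pyruvate carrier, had wide spreads in both tissues, at -0.024, -0.47, 1.64 and 1.38 in brain and -2.03, 0.10, -0.56 and -0.14 in liver. Mouse 1 of the liver and mice 3 and 4 of the brain held its large values. Slc22a2, an organic cation carrier of kidney named for its brain mean over 0.5 in size, was at -0.55 ± 0.17 (SD, n = 3 mice) in brain and -0.074 ± 0.12 in liver.

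**Figure D3:**
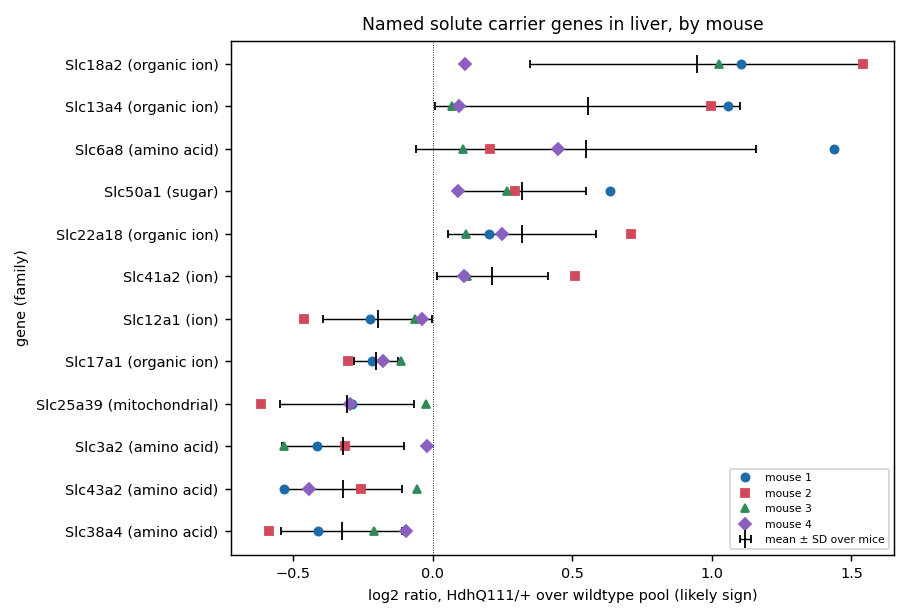
Log2 ratio in liver (horizontal axis) of the 8 Slc genes with the smallest unadjusted p among those with values in 4 mice, and of those with the highest and lowest means of a family with all 4 mice on the same side of 0 (vertical axis). Coloured markers are mice, and the black mark and bar are the mean ± SD. Every gene shown has its 4 mice on the same side of 0, and Slc18a2, Slc13a4 and Slc6a8 spread most.

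Of the mitochondrial carriers with 4 liver values, 0 of 20 lay above 0 in all 4 mice and 6 lay below: Slc25a5, Slc25a13, Slc25a16, Slc25a23, Slc25a30 and Slc25a39. The share below 0 in all 4 mice among all genes was 14.2%. Slc25a39, which is needed for glutathione import into mitochondria, was at -0.29, -0.61, -0.025 and -0.30, a mean of -0.31 ± 0.24 (SD). Slc25a5, an ADP/ATP exchanger, was at -0.37, -0.61, -0.074 and -0.023, a mean of -0.27 ± 0.27 (SD). Slc25a13, the aspartate/glutamate carrier of liver, was at -0.32, -0.26, -0.014 and -0.17, a mean of -0.19 ± 0.13 (SD). Mice 1 and 2 held the lower values of Slc25a5 and Slc25a13, and mouse 3 the highest of Slc25a39 and Slc25a13. The dyes disagreed in sign for Slc25a39, Slc25a5 and Slc25a13 in liver. On the Cy5 and Cy3 arrays, Slc25a39 was at 0.012 and -0.62, Slc25a5 at 0.066 and -0.60, and Slc25a13 at 0.083 and -0.46. Slc25a16, Slc25a23 and Slc25a30 had negative liver means in both dyes. The adjusted p of Slc25a39 and Slc25a5 was 0.576 in each case (limma).

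Slc25a16, linked to coenzyme A supply of mitochondria, was at -0.18, 0.28, 0.62 and 0.43 in brain and -0.68, -0.26, -0.080 and -0.10 in liver, a difference of -0.57 ± 0.21 (SE). Its liver values were all below 0, and 3 of its 4 brain values were above. Over the family, 13 of 19 mitochondrial carriers were lower in liver than in brain, with a median difference of -0.21. Of all 8483 genes, 4870 were lower, with a median of -0.048. Ion carriers had a like share, 27 of 40, with a median of -0.084. Among amino acid carriers 19 of 38 were lower, and among organic ion carriers 9 of 23. None of the 19 mitochondrial carriers passed the test of the difference. The liver medians of the mitochondrial family by mouse were -0.10, -0.17, -0.068 and -0.040, beside -0.073, -0.042, -0.023 and -0.0042 for all genes. In brain, Slc25a1, the citrate carrier, was above 0 in all 4 mice at 0.68, 0.31, 0.13 and 0.043, with both dyes positive. Slc25a25, an ATP-Mg/phosphate carrier, was below 0 at -0.52, -0.048, -0.083 and -0.16, with mouse 1 lowest. Slc25a13 in brain scattered widely, at 1.08, -0.26, -0.64 and 2.13.

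The ion carriers had the narrowest range of the 4 families. Their liver means ran from -0.29 to 0.27 and their brain means from -0.44 to 0.54. An unadjusted p under 0.05 was found for 0 of 40 in brain, beside 3.92% of all genes (limma). In liver it was found for 0 of 41, beside 8.24% of all genes. Slc12a2, which brings chloride into cells, was at -0.28, 0.29, 0.11 and 0.11 in brain. Slc12a5, which exports chloride from neurons, was at -0.26, -0.059, 0.24 and 0.093 in brain, a mean of 0.0051 ± 0.21 (SD). Both genes had mice on each side of 0. Slc12a1, the related cotransporter of the kidney, was below 0 in all 4 livers at -0.22, -0.46, -0.063 and -0.039. Slc41a2, a magnesium carrier, was above 0 in all 4 livers at 0.11, 0.51, 0.12 and 0.11, and mouse 2 stood apart from the other 3. Among zinc carriers, Slc39a10 was below 0 in all 4 brains at -0.49, -0.067, -0.0010 and -0.089, and Slc39a14, which also carries iron and manganese, averaged 0.11 ± 0.56 in brain and -0.054 ± 0.28 in liver (SD).

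Slc26a1, a sulfate and oxalate exchanger of liver and kidney, was the ion carrier with the clearest tissue contrast. It was at 0.14, 0.43, 0.059 and 0.53 in brain and -0.092, -0.037, -0.46 and -0.14 in liver. All brain values were above 0 and all liver values below. The difference was -0.47 ± 0.17 (SE), with an adjusted p of 0.677 (limma). In liver the dyes disagreed in sign, with 0.20 on the Cy5 arrays and -0.56 on the Cy3 arrays.

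Sugar carriers held several of the large brain means. Slc5a1, the sodium-glucose cotransporter of intestine, was at -2.10, -1.10, -0.20 and -0.45 in brain, a mean of -0.96 ± 0.85 (SD), the lowest of all tested Slc genes. All 4 mice lay below 0, but the dyes disagreed, with -2.09 on the Cy5 arrays and 0.17 on the Cy3 arrays. Slc5a9, a related carrier of mannose and glucose, was at 1.33, -0.15, 0.52 and 1.22 in brain and 4.11, -0.060, -0.62 and -0.089 in liver. Mouse 1 in liver exceeded its other livers by more than 4 log2 units. Slc2a3, the glucose carrier of neurons, was at 0.029, 0.20, -0.24 and -0.021 in brain and 1.61, 0.19, -0.0085 and 0.097 in liver, and mouse 1 again stood apart in liver. Slc2a2, the glucose carrier of hepatocytes, was at -0.84, -0.31, 0.035 and -0.23 in liver, and at 0.92 ± 1.04 over 3 brain mice.

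Slc2a8, an intracellular glucose carrier, was below 0 in all 4 livers at -0.24, -0.30, -0.46 and -0.018, with both dyes negative, and its difference between tissues was -0.37 ± 0.15 (SE). Slc50a1, a sugar carrier of a separate fold, was above 0 in all 4 livers at 0.64, 0.29, 0.26 and 0.089, and its dyes disagreed with -0.28 on the Cy5 arrays and 0.92 on the Cy3 arrays. Outside these families, Slc35d1, which moves nucleotide sugars into the endoplasmic reticulum, had closely spaced brain values, at -0.35, -0.37, -0.24 and -0.29. Its mean was -0.31 ± 0.060 (SD) and both dyes were negative, with -0.28 on the Cy5 arrays and -0.34 on the Cy3 arrays. The adjusted p was 0.999 (limma). In liver it was at -0.33, -0.31, 0.060 and -0.37, below 0 in mice 1, 2 and 4. Slc14a1, a urea carrier, was above 0 in all 4 brains at 0.28, 0.33, 0.46 and 0.16. Its 3 probes had brain means from 0.050 to 0.46. The brain mean of Slc14a1 was 0.31, against 0.97 with values over 10 in size kept, and the dyes disagreed with 0.66 on the Cy5 arrays and -0.096 on the Cy3 arrays.

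The difference between liver and brain was tested for 171 Slc genes, and 0 passed, against 2 of all 8483 genes (0.0236%), which were Prl and Pomc. With the mouse as a block 0 passed as well, with a smallest adjusted p of 0.685 (limma). Before adjustment 14 Slc genes had p under 0.05, or 8.19% against 7.21% of all genes, and 9 did without mouse 2 or without mouse 4. They included 5 of 23 organic ion carriers, 4 of 38 amino acid carriers, 3 of 17 sugar carriers, 1 of 40 ion carriers and 1 of 19 mitochondrial carriers. Of the 151 Slc genes with all 8 values, 3 had brain and liver wholly on opposite sides of 0 (Slc26a1, Slc38a4 and Slc6a13), or 1.99% against 1.33% of all genes. In all 3 the brain was above 0. Only Slc35c2, a nucleotide sugar carrier relative, had all 8 values on the same side, below 0, or 0.662% against 0.915% of all genes.

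**Figure D4:**
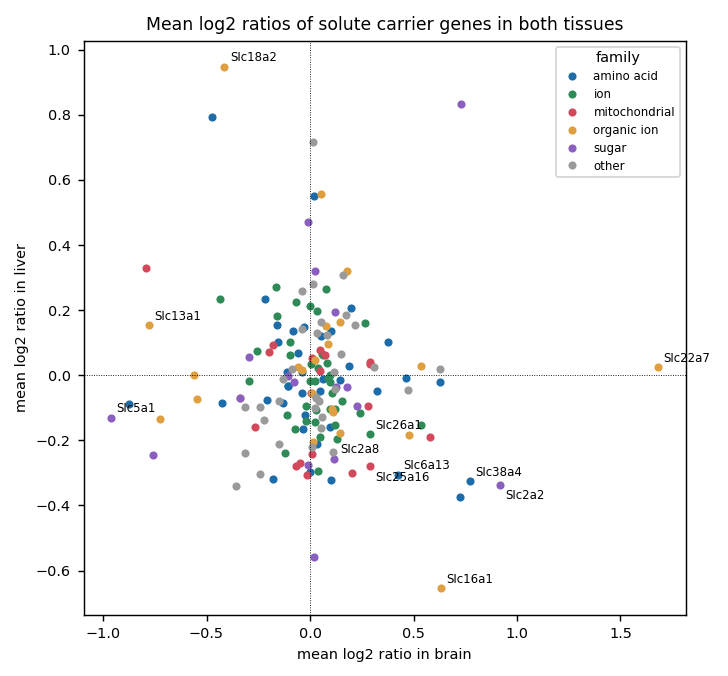
Mean log2 ratio in brain (horizontal axis) and in liver (vertical axis) of the Slc genes tested in both tissues, coloured by family. Slc38a4, Slc6a13 and Slc26a1 lie at lower right, above 0 in brain and below 0 in liver, and Slc22a7 lies alone at a brain mean of 1.68.

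The spread over mice was larger in brain than in liver for 110 of 171 Slc genes (64.3%, against 61.4% of all genes). It was larger in brain for 18 of 23 organic ion carriers, 25 of 38 amino acid carriers, 26 of 40 ion carriers and 11 of 19 mitochondrial carriers. The median SD of the organic ion carriers was 0.44 in brain and 0.20 in liver. The SD of Slc22a7 was 1.19 in brain and 0.065 in liver, and that of Slc25a13 was 1.27 and 0.13. For Slc2a2 it was 1.04 and 0.37. For Slc12a5 and Slc2a3 the SD was larger in liver, at 0.44 and 0.76 against 0.21 and 0.18 in brain. These genes were picked after their values were seen, and signal over background could not be examined.

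**Figure D5:**
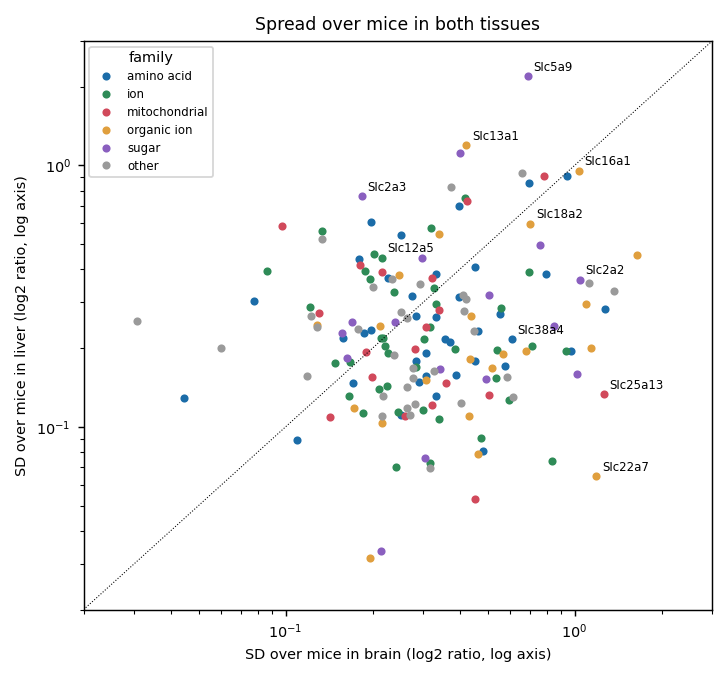
SD over mice of the log2 ratio in brain (horizontal axis, log scale) and in liver (vertical axis, log scale) of the Slc genes tested in both tissues, coloured by family. The dotted line marks equal spread, and 110 of 171 genes lie on the brain side of it, with Slc22a7 and Slc25a13 far out.

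The dye pairs limit every value above. The mean over the Cy5 arrays and the mean over the Cy3 arrays had the same sign for 35.2% of the Slc genes in brain and 29.6% in liver, beside 33.3% and 36% of all genes. The median dye difference was 0.22 in size in brain and 0.20 in liver, while the median mean ratio was 0.12 in size in both. Between brain and liver, the dye differences had a rho of 0.314 over 176 Slc genes and 0.366 over 8602 genes in all. For the pair means the rho was -0.027 and -0.03. The cause of the dye differences was not tested. Of the 8 Slc genes with the smallest unadjusted p among those with 4 values, 5 kept their sign in both dyes in brain and 1 in liver, which was Slc38a4. Among the Slc genes with several probes, the probes gave the same sign for 27 of 45 in brain and 20 of 46 in liver.

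Other transport genes, chosen by symbol, also held no gene that passed the test. In brain, 7 Slco genes (organic anion carriers) had a median of -0.066, 19 ABC transporter genes -0.030, 3 Na,K-ATPase genes 0.0034, 5 Fxyd genes (its regulators) 0.018 and 18 V-ATPase genes, the proton pump of vesicles, 0.045. In liver, the medians were -0.15 for 7 Slco genes, -0.032 for 20 ABC genes, -0.054 for 3 Na,K-ATPase genes, 0.068 for 5 Fxyd genes and -0.0006 for 19 V-ATPase genes. Only 1 Slco gene in each tissue had an unadjusted p under 0.05, and both means were below 0.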

How the data were processed

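The authors' deposited values were 1 log ratio per probe and array, taken as log2 because no header states the base. How they corrected background, normalized and filtered spots is not given in the sources used here. No column was centred. The sign, likely HdhQ111/+ over wildtype, rests on the order of channels in the labels and is not stated. Values over 10 in size (1496 in all, 11 in Slc rows) were set missing. The symbol of platform probe n was given to value row n + 11, an offset that no source states and that was chosen after the data were seen.

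A mouse's value is the mean of its dye-swapped pair, both arrays required, averaged over the probes of a gene. Means were tested against 0 with limma 3.58.1 (R 4.3.3, eBayes, two-sided, Benjamini-Hochberg over all named genes at 0.05) where at least 3 mice had values. Liver minus brain was fitted over 8 mouse values, and repeated with mouse as a block, which pairs the tissues since the labels give both from the same animals. Spearman's rho across 7435 genes between the brain and liver deviations of a mouse was 0.058, -0.0015, 0.084 and 0.036. Between the brain of a mouse and the liver of another it ran from -0.098 to 0.079. The rho values therefore cannot show which tissues share an animal, and the pairing rests on the labels. The fits were tested on simulated data. Precision is limited by the number of arrays.

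The Slc genes and all lists were chosen with earlier results of these data known. Named are 43 Slc genes: those measured of 33 listed by role, the 8 smallest p per tissue among genes with 4 values, the 6 smallest p of the difference among genes with 8 values, and the highest and lowest mean per family and tissue with all 4 mice on the same side of 0. Others were named after their values were seen. Alternatives were centring, each dye alone, names without the offset, other rules on missing values and probes, robust moderation, the block and leaving out each mouse.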

Additional observations from a re-analysis of the deposited data

Results flagged for a closer look

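In 3 Slc genes every brain value lay above 0 and every liver value below. The liver-minus-brain difference was -1.10 for Slc38a4, -0.73 for Slc6a13 and -0.47 for Slc26a1. The difference itself was tested and did not pass, with an adjusted p of 0.677 in each case (limma). Of all genes with 8 values, 99 of 7435 had their tissues on opposite sides of 0.

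In 4 Slc genes the value of 1 liver stood far from the other 3 by Dixon's criterion. Slc5a9 was at 4.11 in mouse 1, and Slc2a3 at 1.61 in mouse 1. Slc41a2 was at 0.51 in mouse 2. Slc35d1 was at 0.0595 in mouse 3, the only liver of that gene above 0. These were 4 of 89 sets of 4 values examined, and chance flags about 1 in 20 such sets.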

How the results depend on the processing

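No Slc gene passed the test in brain, in liver or in their difference under any alternative run. With the mouse as a replicate block, which is the pairing of the tissues, the count was 0 with a smallest adjusted p of 0.685 (limma). The block cannot move the difference of a gene with values in every mouse and tissue, such as Slc38a4 at -1.10. Slc genes with unadjusted p under 0.05 numbered 8 to 34 in brain, 2 to 39 in liver and 9 to 20 for the difference; both high ends of the tissues came from the Cy3 arrays alone, and the low end in liver came without mouse 2. Without mouse 1 the liver count was 5.

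Single dyes moved the family medians most. With the Cy5 arrays alone the brain medians were 0.20 for amino acid and 0.25 for mitochondrial carriers, and the liver medians 0.063 for ion and -0.051 for organic ion carriers. With the Cy3 arrays alone the amino acid median was -0.14 in brain and 0.016 in liver, and the other liver medians were -0.076 for ion, -0.12 for mitochondrial and -0.15 for organic ion carriers. With names as given, the amino acid median in brain was 0.073. Leaving out each mouse gave -0.051 to 0.065 for amino acid carriers in brain, -0.064 to -0.029 for ion carriers in liver and -0.057 to 0.016 for organic ion carriers in liver.

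Signs turned as follows. With Cy5 alone, the liver values were -0.57 for Slc13a4, -0.0795 for Slc18a2, -0.70 for Slc22a18, 0.012 for Slc25a39 and -0.28 for Slc50a1, the brain values 0.072 for Slc39a10 and -0.89 for Slc5a9, and the difference of Slc18a2 -0.24. With Cy3 alone, Slc14a1, Slc22a17 and Slc5a1 were at -0.096, -0.31 and 0.17 in brain, and Slc3a2, Slc41a2 and Slc43a2 at 0.16, -0.11 and 0.016 in liver. With names as given, the brain values were 0.15 for Slc13a1, -0.14 for Slc14a1, 0.037 for Slc35d1, 0.045 for Slc39a10 and -0.15 for Slc6a13, and the difference of Slc18a2 was -0.25. The liver values there were -0.12 for Slc22a18, 0.17 for Slc25a39, 0.29 for Slc38a4, 0.41 for Slc3a2, -0.46 for Slc41a2, -0.13 for Slc50a1 and -0.24 for Slc6a8. Only genes named for their values are listed, a restriction chosen after seeing how many signs turned. Among all named genes, signs turned for 15 of 42 with Cy5 alone in each tissue, 12 and 13 of 42 with Cy3 alone, 17 of 41 in brain and 23 of 42 in liver with names as given, 2 and 1 of 42 with centred arrays, and 3 to 7 when a mouse was left out. The cause was not tested.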
